A study of Mus musculus with 3 samples.

Results

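The genes described here encode the motors, tubulins and actin regulators of the cytoskeleton: kinesins, unconventional myosins, dynein chains, tubulins with the proteins of the γ-tubulin complex, subunits of the Arp2/3 complex and other actin-related proteins, the WASP family, Diaphanous formins, coronins, Dock exchange factors, and calponins with tropomyosins. They were chosen by the start of the gene symbol in the array's probe annotation, a rule that uses no measured value, although it was set with earlier results of these data known. This gave 131 genes, measured by 135 probes, out of 16390 genes with a symbol on the array, in 10 families. Of the 131 symbols, 7 were updated to the current name (Diap1, Diap2 and Diap3 are given here as Diaph1, Diaph2 and Diaph3, for example), and Dynlt1 was kept although several genes share it as an older name.

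Gene expression was measured in mice that carry an IL-10 Venus reporter, so that cells expressing Il10 fluoresce with the protein Venus. Cells were taken fresh and sorted by flow cytometry into 3 populations: bone marrow cells positive for Venus with high CD138 (bone marrow Venus+), spleen cells of the same gate (spleen Venus+), and spleen B220+ cells, the control, which were not sorted on Venus. CD138 (syndecan-1) marks plasma cells and B220 marks B cells, and the reporter was carried by the mice of all groups, the control included. One-colour arrays were used, 1 for each population, so population and array cannot be told apart, and the sources used here do not give the number, age or sex of the mice.

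Actin filaments grow as branched networks when WASP or WAVE proteins switch on the Arp2/3 complex, and as straight filaments when formins build them. Exchange factors such as the Dock proteins act upstream of actin assembly, and coronins, calponins and tropomyosins bind the finished filaments. Myosins pull on actin, kinesins and dyneins move cargo along microtubules built of α- and β-tubulin, and some kinesins build the spindle of dividing cells. In B cells the actin network shapes antigen receptor signalling and migration, whereas plasma cells are specialised for antibody secretion and most have stopped dividing.

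Values are normalized signals: the spot's intensity minus the level of the blank spots, scaled so that the median of the detected probes on an array is 25. A probe was detected when its spot exceeded the mean of the blank spots by more than 2 SD, which put the lowest detectable signal at 2.35 in bone marrow Venus+, 1.74 in spleen Venus+ and 1.34 in B220+ cells. The number after ± is the spot error of a log2 ratio, from the spread of blank and control spots on both arrays. It holds nothing of the spread between mice or sorts, without replicates no difference could be checked, and no p-value is given. Higher and lower are used of genes with a detected signal on each array of a pair and at least a 2-fold difference between them. For a gene detected on 1 array of a pair, a lower bound on its fold can be given, which leaves out the spot error of the detected signal. There is no bound where its signal lies below the lowest detectable signal of the other array, and detection on 1 array then shows no difference. In bulk samples such as these, fewer cells of a type and less RNA per cell cannot be told apart. Probes differ in brightness, so a signal is compared only between arrays, never between probes.

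The sorted populations carried the markers of their labels. All 7 plasma cell markers detected on both arrays were higher in each Venus+ population than in B220+ cells, Sdc1 (the gene of CD138) at 219.5 in bone marrow Venus+ cells, 128 in spleen Venus+ cells and 2.49 in B220+ cells. All 7 mature B cell markers detected on both arrays were lower in bone marrow Venus+ cells than in B220+ cells, and all 8 in spleen Venus+ cells. Markers of other cell types moved as well. The summed signal of 9 neutrophil markers was 232 in bone marrow Venus+, 42.4 in spleen Venus+ and 5163 in B220+ cells, with S100a9 at 69.4 in bone marrow Venus+ and 2552 in B220+ cells and not detected in spleen Venus+ cells. The summed signal of 8 T cell markers was 1597 in bone marrow Venus+, 1292 in spleen Venus+ and 46.1 in B220+ cells, most of it Cd247 and Cd28 in the Venus+ cells. Cd3d had 24.5 in bone marrow Venus+, 39.3 in spleen Venus+ and 7.89 in B220+ cells. Cd3e and Cd3g were detected only in the Venus+ populations, Cd3e at 17.8 in bone marrow and 7.55 in spleen and Cd3g at 8.95 in bone marrow and 55.7 in spleen. Cd4 was higher in bone marrow alone, and Cd8a and Lat lay within 2-fold of B220+ cells. Of the neutrophil markers, 7 of 9 were lower in bone marrow Venus+ cells than in B220+ cells and Mpo alone was higher. The sum of the 6 monocyte markers was 274 in bone marrow Venus+, 138 in spleen Venus+ and 81.5 in B220+ cells, and Cd68 made up 241 in bone marrow Venus+, 111 in spleen Venus+ and 33.01 in B220+ cells. Fcgr3 was lower in both Venus+ populations, and Ccr2 and Adgre1 were detected in B220+ cells alone. The Adgre1 signal of 1.43 was below the lowest detectable signal of both Venus+ arrays. The sum of the 6 basophil, mast cell and eosinophil markers was 186 in bone marrow Venus+, 68.8 in spleen Venus+ and 25.6 in B220+ cells. Mcpt8, Prg3 and Cpa3 were higher in both Venus+ populations. Mcpt8 had 143 in bone marrow Venus+, 43 in spleen Venus+ and 17.5 in B220+ cells. Ms4a2 was detected in B220+ cells alone, at 4.13, and Epx and Fcer1a were not detected on any array. The NK cell, platelet, erythroid and stromal lists had sums between 13.9 and 189.6 on the 3 arrays, and Itga2b, Epor, Acta2 and Cdh5 were not detected on any. Many actin genes described below are known from neutrophils and T cells too, and the part of those cells in the results was not tested.

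Detected signals were obtained for 99 of the 131 genes in bone marrow Venus+ cells, for 113 in spleen Venus+ cells and for 110 in B220+ cells, with 92 on all 3 arrays and 11 on none (Dock3, Dynlrb2, Kif14, Kif17, Kif1b, Kif21a, Kif27, Kif2b, Myo3a, Myo5b and Wasf3). These are 75.6% of the genes in bone marrow Venus+, 86.3% in spleen Venus+ and 84.0% in B220+ cells, where 70.3% of all 16390 genes were detected in bone marrow Venus+, 75.8% in spleen Venus+ and 74.2% in B220+ cells, so bone marrow was the lowest over the whole array too. Between bone marrow Venus+ and B220+ cells, 92 were measured on both arrays. Of these, 15 (16.3%) were higher and 38 (41.3%) lower, where 22.4% of all genes measured on both arrays were higher and 30.7% lower. Between spleen Venus+ and B220+ cells, 10 (9.62%) of 104 were higher and 35 (33.7%) lower, against 15.7% of all genes higher and 16.5% lower. The median log2 ratio over the measured genes was -0.57 in bone marrow Venus+ and -0.45 in spleen Venus+ cells, and that over all genes -0.24 in bone marrow Venus+ and -0.02 in spleen Venus+ cells. The share of lower genes was therefore above that of the whole array in both comparisons, and the share of higher genes below it. Both comparisons use the B220+ array. With no replicates, these differences from the whole array were not tested.

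The families did not share this equally. In the bars by family, the actin families (Arp2/3 with the other actin-related proteins, WASP, formins, coronins, Dock proteins, calponins and tropomyosins) lie mostly on the lower side, and the kinesins and myosins on both. The median log2 ratios of the Arp2/3 and actin-related, WASP, formin, coronin and calponin-tropomyosin families against B220+ cells were below 0 under all 9 ways of processing tried. The first of these families also holds actin-related proteins outside the Arp2/3 complex. The medians of the kinesins, myosins, dyneins and tubulins lay between -0.13 and 0.26 and changed sign under at least 1 way of processing in each comparison. The median of the Dock family was -0.70 in bone marrow Venus+ and -0.87 in spleen Venus+ cells, and it turned to 0.41 in bone marrow with a signal of at least 10 on both arrays, where 3 genes were left.

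**Figure D1:**
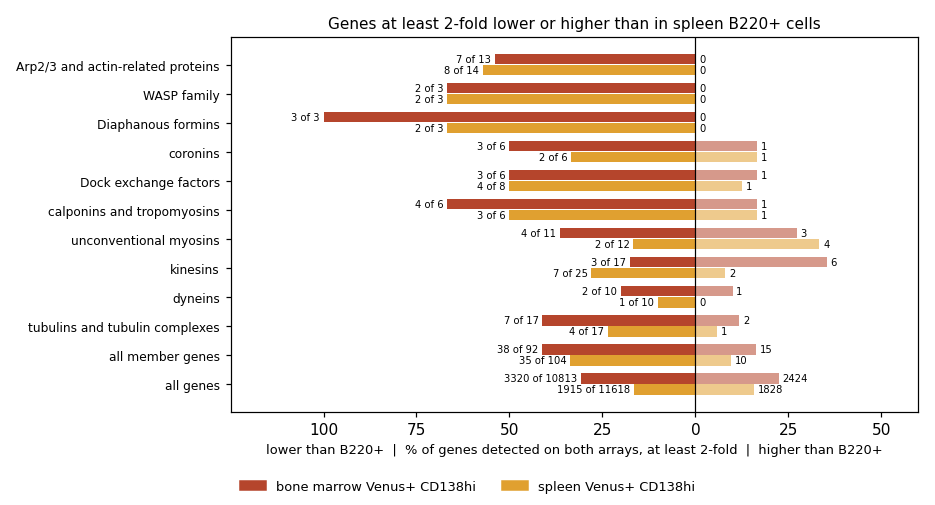
Share of genes at least 2-fold lower (left of 0, full colour) or higher (right of 0, pale) than on the spleen B220+ array, in % of the genes of each family detected on both arrays; bone marrow Venus+ above spleen Venus+, 1 array each. Labels give the number of lower genes and of genes measured (left) and of higher genes (right). All 3 formins were lower in bone marrow Venus+ cells. No gene of the Arp2/3 and actin-related, WASP or formin families detected on both arrays was higher in either population, and Wasf1, undetected in B220+ cells, is not counted.

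Most measured genes of the Arp2/3 complex, which starts new actin branches, were lower in both Venus+ populations. The 7 subunit genes measured include paralogues (Arpc1a with Arpc1b, Arpc5 with Arpc5l), and Arpc3 and Arpc4 were not among the 131 genes. Of these 7, 6 were at least 2-fold lower than in B220+ cells in bone marrow Venus+ cells and 6 in spleen Venus+ cells. Their median log2 ratios were -2.02 in bone marrow and -1.72 in spleen. Over all genes 30.7% were lower in bone marrow and 16.5% in spleen. Actr3, the actin-like subunit Arp3, had a signal of 334 in bone marrow Venus+ cells, 711 in spleen Venus+ cells and 3928 in B220+ cells. The bone marrow array was the lowest and the B220+ array far above both, with log2 ratios to it of -3.56 ± 0.13 in bone marrow Venus+ and -2.47 ± 0.14 in spleen Venus+ cells. Actr2, the partner subunit Arp2, had 251 in bone marrow Venus+ cells, 649 in spleen Venus+ cells and 2167 in B220+ cells, in the same order, with log2 ratios of -3.11 ± 0.13 in bone marrow and -1.74 ± 0.14 in spleen. Arpc5, which helps to hold the complex together, had 404 in bone marrow Venus+ cells, 651 in spleen Venus+ cells and 2145 in B220+ cells, or log2 ratios of -2.41 ± 0.13 in bone marrow and -1.72 ± 0.14 in spleen. Its paralogue Arpc5l had 147 in bone marrow Venus+ cells, 153 in spleen Venus+ cells and 596 in B220+ cells, nearly level in the Venus+ populations, with log2 ratios of -2.02 ± 0.13 in bone marrow and -1.96 ± 0.14 in spleen. These ratios of Arpc5l were -0.32 in bone marrow and -0.06 in spleen when each spot's own local background was subtracted.

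The remaining subunits separated a pair of paralogues. Arpc1b, the form of the ARPC1 subunit that dominates in blood cells, had 691 in bone marrow Venus+ cells, 934 in spleen Venus+ cells and 2381 in B220+ cells. Its log2 ratios to B220+ cells were -1.78 ± 0.13 in bone marrow Venus+ and -1.35 ± 0.14 in spleen Venus+ cells. Arpc1a, the other form, had 213 in bone marrow Venus+ cells, 185 in spleen Venus+ cells and 193 in B220+ cells, and its log2 ratios of 0.15 ± 0.13 in bone marrow and -0.06 ± 0.14 in spleen differ from 0 by little more than the spot error or less. Arpc2, a subunit of the complex's core, had 1381 in bone marrow Venus+ cells, 1814 in spleen Venus+ cells and 3949 in B220+ cells, with log2 ratios of -1.52 ± 0.13 in bone marrow and -1.12 ± 0.14 in spleen. Of the family's lower calls, 5 of 7 in bone marrow Venus+ cells (Actr3, Actr2, Actr6, Arpc5 and Arpc1b) and 4 of 8 in spleen Venus+ cells (Actr3, Actr6, Actr2 and Arpc5) held under each of the 8 other ways of processing.

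Because Actr2, Actr3 and Arpc5 moved together, the 250 bases before the start of their transcripts are shown, read 5′ to 3′ on the gene's strand from RefSeq's annotation of GRCm38.p6. They lie at chr11:20112952-20113201 (minus strand), chr1:125435728-125435977 (minus strand) and chr1:152766292-152766541 (plus strand). Capitals mark matches, on either strand, to GAAAG, the core of the sites bound by the plasma cell repressor Blimp-1, and to TTTGAA, the CHR element of cell cycle promoters. The last motif searched, the CArG box bound by serum response factor, was not found in these windows. Overlapping matches were all counted.
Actr2: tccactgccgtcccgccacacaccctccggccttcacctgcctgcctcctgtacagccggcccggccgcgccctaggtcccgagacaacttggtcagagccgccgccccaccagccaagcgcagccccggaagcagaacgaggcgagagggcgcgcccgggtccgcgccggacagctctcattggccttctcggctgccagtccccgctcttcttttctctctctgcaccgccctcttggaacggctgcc
Actr3: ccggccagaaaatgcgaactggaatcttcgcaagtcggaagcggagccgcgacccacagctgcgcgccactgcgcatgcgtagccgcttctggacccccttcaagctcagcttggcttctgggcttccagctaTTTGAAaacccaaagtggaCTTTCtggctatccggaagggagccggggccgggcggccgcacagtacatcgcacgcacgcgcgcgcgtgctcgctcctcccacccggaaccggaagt
Arpc5: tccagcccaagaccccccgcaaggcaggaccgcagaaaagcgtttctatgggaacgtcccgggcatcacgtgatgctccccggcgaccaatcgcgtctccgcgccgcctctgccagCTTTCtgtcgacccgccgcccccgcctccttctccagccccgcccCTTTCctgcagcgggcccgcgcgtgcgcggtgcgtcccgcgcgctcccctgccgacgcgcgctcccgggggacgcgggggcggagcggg
The Actr2 window held none of the 3 motifs, that of Actr3 1 GAAAG and 1 TTTGAA, and that of Arpc5 2 copies of GAAAG. The first of these motifs, GAAAG, was found in 50.8% of the 126 windows of the 107 cytoskeletal genes matched in the table and in 51.5% of its 32851 windows, and TTTGAA in 14.3% of the cytoskeletal windows and 16.0% of all. These are matches of letters, and neither share of the cytoskeletal genes exceeded that of all windows.

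Other actin-related proteins work in the nucleus or on dynactin, the cofactor of dynein. Actr6, a subunit of a chromatin remodelling complex, had 31.3 in bone marrow Venus+ cells, 42.8 in spleen Venus+ cells and 168 in B220+ cells, so both Venus+ arrays were low against B220+ cells, with log2 ratios of -2.43 ± 0.14 in bone marrow and -1.98 ± 0.14 in spleen. Actr5, a subunit of another remodelling complex, had 142 in bone marrow Venus+ cells, 132 in spleen Venus+ cells and 135 in B220+ cells, level on the 3 arrays within the spot error. Actr1a, which forms the short filament of dynactin, lay within 2-fold at 20.7 in bone marrow Venus+ cells, 21.4 in spleen Venus+ cells and 23.7 in B220+ cells, and Actr10, at that filament's pointed end, had 197 in bone marrow Venus+ cells, 186 in spleen Venus+ cells and 363 in B220+ cells, just within 2-fold of B220+ cells. Actr8, another nuclear one, and Actrt2 lay within 2-fold on every pair. Actrt1, an actin-related protein known from the testis, was dim: not detected in bone marrow Venus+ cells, 3.89 in spleen Venus+ cells and 13.3 in B220+ cells.

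**Figure D2:**
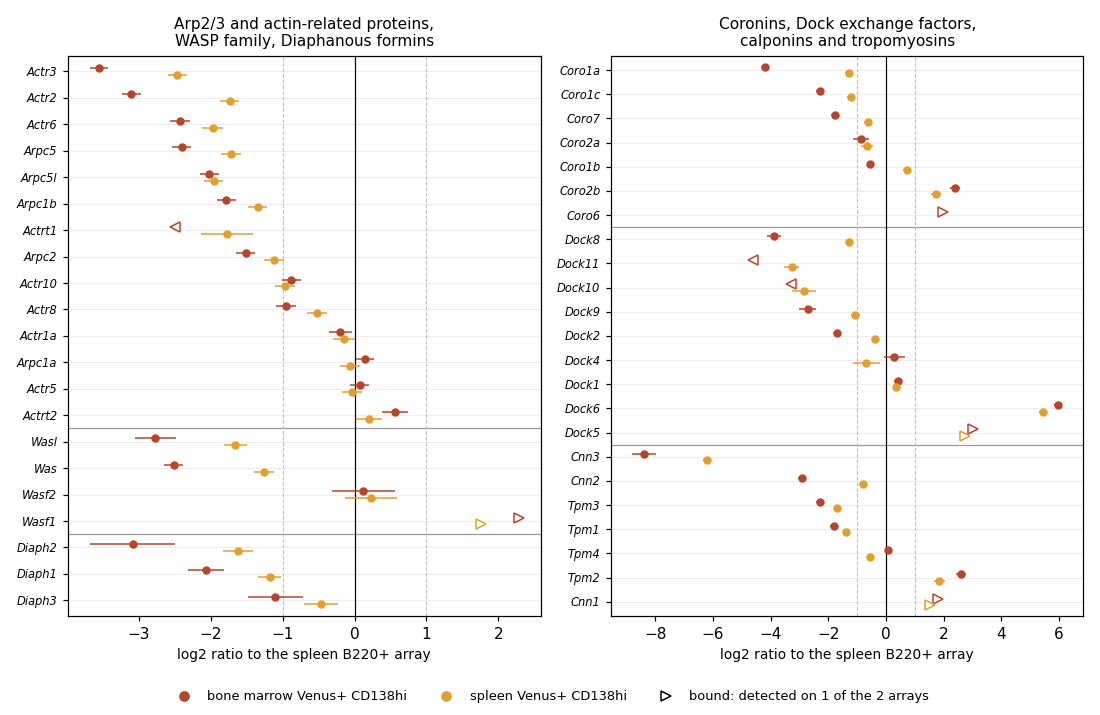
Log2 ratio of the normalized signal to the spleen B220+ array for each actin gene, bone marrow Venus+ above spleen Venus+, 1 array each. Bars give the spot error, open triangles lower bounds where 1 array of a pair had no detected signal, dashed lines 2-fold, and grey lines separate families; genes without either value are not drawn. The Arp2/3 subunits other than Arpc1a lie left of -1 on both arrays, Dock6 lies alone far to the right, and Cnn3 far to the left.

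Among the activators of Arp2/3, Was and Wasl were lower as well, but neither WAVE gene with a detected signal was. Was, the WASP protein of blood cells, had 61.4 in bone marrow Venus+ cells, 146 in spleen Venus+ cells and 351 in B220+ cells, a stepwise order with log2 ratios to B220+ cells of -2.52 ± 0.13 in bone marrow Venus+ and -1.26 ± 0.14 in spleen Venus+ cells. Wasl (N-WASP), its widely expressed relative, had 6.76 in bone marrow Venus+ cells, 14.7 in spleen Venus+ cells and 46.3 in B220+ cells, or -2.78 ± 0.28 in bone marrow and -1.66 ± 0.16 in spleen. The WAVE gene Wasf2 was dim and level at 4.75 in bone marrow Venus+ cells, 5.10 in spleen Venus+ cells and 4.36 in B220+ cells. Wasf1, a WAVE gene known mainly from the brain, was detected only in the Venus+ populations, at 6.57 in bone marrow and 4.55 in spleen, at least 4.89-fold above B220+ cells in bone marrow and at least 3.39-fold in spleen. Of the 2 lower genes, only Was in bone marrow Venus+ cells kept its call under every other processing.

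The 3 Diaphanous formins, which lengthen straight filaments, were dim. Diaph1 had 8.21 in bone marrow Venus+ cells, 15.1 in spleen Venus+ cells and 34.4 in B220+ cells, lowest in bone marrow, with log2 ratios to B220+ cells of -2.07 ± 0.25 in bone marrow and -1.18 ± 0.16 in spleen. Diaph2 had 2.98 in bone marrow Venus+ cells, 8.27 in spleen Venus+ cells and 25.4 in B220+ cells in the same order, or -3.09 ± 0.59 in bone marrow and -1.62 ± 0.21 in spleen. Diaph3 had 4.88 in bone marrow Venus+ cells, 7.59 in spleen Venus+ cells and 10.5 in B220+ cells, with -1.10 ± 0.38 in bone marrow Venus+ cells and -0.47 ± 0.23 in spleen Venus+ cells, where it lay within 2-fold. No formin call held under every other processing. With the normexp correction the ratio of Diaph3 in bone marrow was 0.0090, and with local background that of Diaph2 in spleen was 0.052.

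The Dock proteins load Rac or Cdc42. The 4 genes whose proteins act on Cdc42 were all lower in spleen Venus+ cells than in B220+ cells, and in bone marrow Venus+ cells 2 were lower and 2 were not detected. Over all genes measured on both arrays, 16.5% were lower in spleen and 30.7% in bone marrow. Of all 16390 genes, 1352 were detected on the B220+ array and not on the bone marrow array. Dock8, whose loss causes an immunodeficiency in humans, had 8.52 in bone marrow Venus+ cells, 51.7 in spleen Venus+ cells and 126 in B220+ cells, a steep order with log2 ratios of -3.89 ± 0.24 in bone marrow and -1.28 ± 0.14 in spleen. Dock11 was not detected in bone marrow Venus+ cells and had 5.96 in spleen Venus+ cells and 57.4 in B220+ cells. That puts bone marrow at least 24.4-fold below B220+ cells and gives spleen a log2 ratio of -3.27 ± 0.25. Dock10 followed the same order, not detected in bone marrow Venus+ cells, 3.21 in spleen Venus+ cells and 22.8 in B220+ cells, at least 9.71-fold lower in bone marrow and with a log2 ratio of -2.83 ± 0.42 in spleen. Dock9 had 6.45 in bone marrow Venus+ cells, 20.1 in spleen Venus+ cells and 41.96 in B220+ cells, with log2 ratios of -2.70 ± 0.29 in bone marrow and -1.06 ± 0.15 in spleen. The spleen calls of Dock8, Dock9 and Dock10 and the bone marrow call of Dock9 did not hold under every other processing.

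Among the Dock genes that act on Rac, Dock2, the main one of lymphocytes, had 80.8 in bone marrow Venus+ cells, 201 in spleen Venus+ cells and 263 in B220+ cells. It was lower in bone marrow Venus+ cells (-1.70 ± 0.13) and within 2-fold in spleen Venus+ cells (-0.39 ± 0.14). Dock1, a partner of Elmo proteins, had 118 in bone marrow Venus+ cells, 115 in spleen Venus+ cells and 89.3 in B220+ cells, within 2-fold throughout. Dock4 was dim and also within 2-fold. Dock5, a close relative of Dock1, was detected only in the Venus+ populations, at 10.9 in bone marrow and 9.05 in spleen, at least 8.15-fold above B220+ cells in bone marrow and at least 6.74-fold in spleen.

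Dock6, which acts on both Rac and Cdc42, went the other way and by far. Its signal was 9196 in bone marrow Venus+ cells, 6421 in spleen Venus+ cells and 146 in B220+ cells. Both Venus+ arrays were high, with log2 ratios of 5.97 ± 0.13 in bone marrow and 5.46 ± 0.14 in spleen, the 46th highest of 10813 and the 37th highest of 11618 genes measured on both arrays. The call held under each of the 8 other ways of processing, with a log2 ratio of at least 5.23 in bone marrow and 4.89 in spleen. A single probe measures the gene. As the member that rose most, its 250 bases before the start, at chr9:21852636-21852885 on the minus strand, are shown, with GAAAG in capitals.
Dock6: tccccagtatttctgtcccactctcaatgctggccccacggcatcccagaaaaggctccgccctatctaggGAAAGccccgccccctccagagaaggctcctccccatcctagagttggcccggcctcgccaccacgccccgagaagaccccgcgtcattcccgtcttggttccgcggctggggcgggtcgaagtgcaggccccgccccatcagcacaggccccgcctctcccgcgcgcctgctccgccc
The window held 1 GAAAG, 179 bases before the start, and neither of the other motifs.

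Coronins bind actin filaments and help to take Arp2/3 branches apart. Coro1a, the leukocyte form, had 196 in bone marrow Venus+ cells, 1468 in spleen Venus+ cells and 3572 in B220+ cells. Bone marrow was far below both spleen populations, with log2 ratios to B220+ cells of -4.19 ± 0.13 in bone marrow Venus+ and -1.28 ± 0.14 in spleen Venus+ cells. Coro1c had 28.1 in bone marrow Venus+ cells, 58.1 in spleen Venus+ cells and 136 in B220+ cells, with -2.27 ± 0.15 in bone marrow and -1.23 ± 0.14 in spleen. Coro7, which works at the Golgi apparatus, had 35.05 in bone marrow Venus+ cells, 76.7 in spleen Venus+ cells and 118 in B220+ cells, lower in bone marrow (-1.75 ± 0.14) and within 2-fold in spleen (-0.62 ± 0.14). These 3 bone marrow calls held under every other processing that gave a value, and the 2 spleen calls did not. Coro1b was highest in spleen Venus+ cells, with 166 in bone marrow Venus+ cells, 397 in spleen Venus+ cells and 241 in B220+ cells, within 2-fold of B220+ cells on both Venus+ arrays. Coro2b rose, with 48.2 in bone marrow Venus+ cells, 30.8 in spleen Venus+ cells and 9.17 in B220+ cells and log2 ratios of 2.40 ± 0.17 in bone marrow and 1.75 ± 0.18 in spleen, which the normexp background correction narrowed to 0.89 in bone marrow and 0.63 in spleen. Coro2a lay within 2-fold on every pair. Coro6 was detected only in bone marrow Venus+ cells, at 5.34, at least 3.97-fold above B220+ cells.

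Calponins and tropomyosins lie along actin filaments and steady them. Cnn3 was the gene with the lowest log2 ratio of all 10813 measured in bone marrow Venus+ and B220+ cells, and the 4th lowest of 11618 in spleen Venus+ cells. It had 4.41 in bone marrow Venus+ cells, 19.99 in spleen Venus+ cells and 1468 in B220+ cells, bright on the B220+ array and close to the detection limit in bone marrow. The log2 ratios were -8.38 ± 0.41 in bone marrow and -6.20 ± 0.15 in spleen, and under the other ways of processing they stayed at or below -5.27 in bone marrow and -4.92 in spleen. Cnn2, the calponin of blood cells among other tissues, had 217 in bone marrow Venus+ cells, 942 in spleen Venus+ cells and 1644 in B220+ cells, lower in bone marrow Venus+ cells (-2.92 ± 0.13) and within 2-fold in spleen Venus+ cells (-0.80 ± 0.14). Cnn1, the smooth muscle form, was near the limit at 4.71 in bone marrow Venus+ and 3.92 in spleen Venus+ cells and was not detected in B220+ cells.

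The windows before the starts of Cnn3 and Cnn2 are shown because these genes fell most in bone marrow within the family, and because that of Cnn2 is one of 2 windows among the 126 that hold a CArG box. They lie at chr3:121426291-121426540 and chr10:79988350-79988599, both on the plus strand, and the CArG box is in capitals.
Cnn3: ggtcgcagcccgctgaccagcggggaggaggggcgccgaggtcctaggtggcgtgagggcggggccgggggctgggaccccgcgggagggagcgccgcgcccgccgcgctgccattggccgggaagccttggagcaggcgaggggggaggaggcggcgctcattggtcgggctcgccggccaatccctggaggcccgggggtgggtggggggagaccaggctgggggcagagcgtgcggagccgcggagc
Cnn2: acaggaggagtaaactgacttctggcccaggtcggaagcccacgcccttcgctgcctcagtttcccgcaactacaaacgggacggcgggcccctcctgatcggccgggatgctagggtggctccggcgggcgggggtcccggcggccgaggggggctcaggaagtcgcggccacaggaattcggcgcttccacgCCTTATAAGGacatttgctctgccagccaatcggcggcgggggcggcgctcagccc
The CArG box of Cnn2 begins 56 bases before the start, and the Cnn3 window held none of the 3 motifs. A CArG box was found in 1.59% of the 126 cytoskeletal windows and in 482 of all 32851 (1.47%).

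The tropomyosins split. Tpm3 had 362 in bone marrow Venus+ cells, 555 in spleen Venus+ cells and 1779 in B220+ cells, with log2 ratios of -2.30 ± 0.13 in bone marrow and -1.68 ± 0.14 in spleen to B220+ cells. Its dimmer second probe gave -1.51 in bone marrow, lower, and -0.67 in spleen, within 2-fold. Tpm1 had 56.2 in bone marrow Venus+ cells, 75.2 in spleen Venus+ cells and 196 in B220+ cells, or -1.80 ± 0.14 in bone marrow and -1.38 ± 0.14 in spleen. Tpm4 had 243 in bone marrow Venus+ cells, 155 in spleen Venus+ cells and 229 in B220+ cells, within 2-fold on each pair of arrays. Tpm2, known best from muscle, rose with 50.5 in bone marrow Venus+ cells, 29.8 in spleen Venus+ cells and 8.26 in B220+ cells, or 2.61 ± 0.18 in bone marrow and 1.85 ± 0.18 in spleen. The lower calls of the family, 4 in bone marrow and 3 in spleen, held under every other processing that gave a value, while normexp narrowed the ratios of Tpm2 to 0.96 in bone marrow and 0.64 in spleen.

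The unconventional myosins had calls in both directions. Against B220+ cells, 3 of 11 were higher and 4 lower in bone marrow Venus+ cells, near the 22.4% higher and 30.7% lower of all genes. In spleen Venus+ cells 4 of 12 were higher and 2 lower, against 15.7% and 16.5% of all genes. The class I myosins, single-headed motors that tie membrane to actin, held most of the lower calls. Myo1c, which works at the plasma membrane, had 17.1 in bone marrow Venus+ cells, 48.9 in spleen Venus+ cells and 289 in B220+ cells, with log2 ratios of -4.08 ± 0.16 in bone marrow and -2.56 ± 0.14 in spleen. Myo1f, a myosin of blood cells and of neutrophils among them, was not detected in bone marrow Venus+ cells and had 3.13 in spleen Venus+ cells and 75.2 in B220+ cells. It was at least 31.98-fold lower in bone marrow, and its log2 ratio of -4.59 ± 0.42 in spleen was the 10th lowest of 11618. Myo1g, the other class I myosin of blood cells, had 8.28 in bone marrow Venus+ cells, 57.8 in spleen Venus+ cells and 99.9 in B220+ cells, lower in bone marrow (-3.59 ± 0.24) and within 2-fold in spleen (-0.79 ± 0.14). The part of the neutrophil markers, which were also higher in B220+ cells, in these ratios was not tested.

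Myo1e, a class I myosin with an SH3 domain, was the only one of the 131 genes called in opposite directions in the Venus+ populations. It had 31.03 in bone marrow Venus+ cells, 349.7 in spleen Venus+ cells and 165 in B220+ cells, so that spleen Venus+ was the high array and bone marrow Venus+ the low one. The log2 ratios to B220+ cells were -2.41 ± 0.14 in bone marrow and 1.08 ± 0.14 in spleen. The lower call held under each of the 8 other ways of processing, and the higher one under 7, with normexp at 0.70. The window before its start, at chr9:70207100-70207349 on the plus strand, is shown because it is the other one with a CArG box, in capitals, 32 bases before the start.
Myo1e: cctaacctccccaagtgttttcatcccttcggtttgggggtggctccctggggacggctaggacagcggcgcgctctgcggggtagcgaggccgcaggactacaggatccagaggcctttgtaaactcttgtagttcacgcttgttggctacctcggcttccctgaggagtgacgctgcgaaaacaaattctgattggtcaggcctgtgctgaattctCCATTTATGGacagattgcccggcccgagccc
GAAAG and TTTGAA were not found in it.

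The myosins that rose are mostly known from other tissues and were dim in B220+ cells. Myo15, a myosin of the hair cells of the inner ear, had 61.9 in bone marrow Venus+ cells, 36.6 in spleen Venus+ cells and 7.95 in B220+ cells, with log2 ratios of 2.96 ± 0.18 in bone marrow and 2.20 ± 0.19 in spleen. Myo7a, known from the same cells, had 13.7 in bone marrow Venus+ cells, 11.4 in spleen Venus+ cells and 5.45 in B220+ cells, or 1.33 ± 0.25 in bone marrow and 1.07 ± 0.25 in spleen. Myo5c, a class V myosin of secretory epithelia, had 4.49 in bone marrow Venus+ cells, 2.91 in spleen Venus+ cells and 1.34 in B220+ cells, at the detection limit in B220+ cells, with 1.74 ± 0.82 in bone marrow and 1.12 ± 0.85 in spleen. Of these calls, only that of Myo15 in bone marrow held under every other processing that gave a value. Among the myosins of vesicle transport and signalling, Myo5a, a carrier of vesicles, had 20.6 in bone marrow Venus+ cells, 30.6 in spleen Venus+ cells and 39.9 in B220+ cells and Myo9b, a signalling myosin, 19.9 in bone marrow Venus+ cells, 27.4 in spleen Venus+ cells and 20.8 in B220+ cells, both within 2-fold. Myo18a had 4.80 in bone marrow Venus+ cells, 14.8 in spleen Venus+ cells and 20.8 in B220+ cells, lower in bone marrow alone (-2.12 ± 0.38, but -0.33 with normexp). Myo6, which walks towards the minus end of actin, was detected in the Venus+ populations, at 4.02 in bone marrow and 3.08 in spleen, and not in B220+ cells. Myo1d was detected only in spleen Venus+ cells, at 1.75, and Myo9a and Myo10 only in B220+ cells, Myo9a at 2.29 and Myo10 at 3.41. The signals of Myo1d and Myo9a lay below the lowest detectable signal in bone marrow Venus+ cells. Myo15b and Myo7b lay within 2-fold on every pair.

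**Figure D3:**
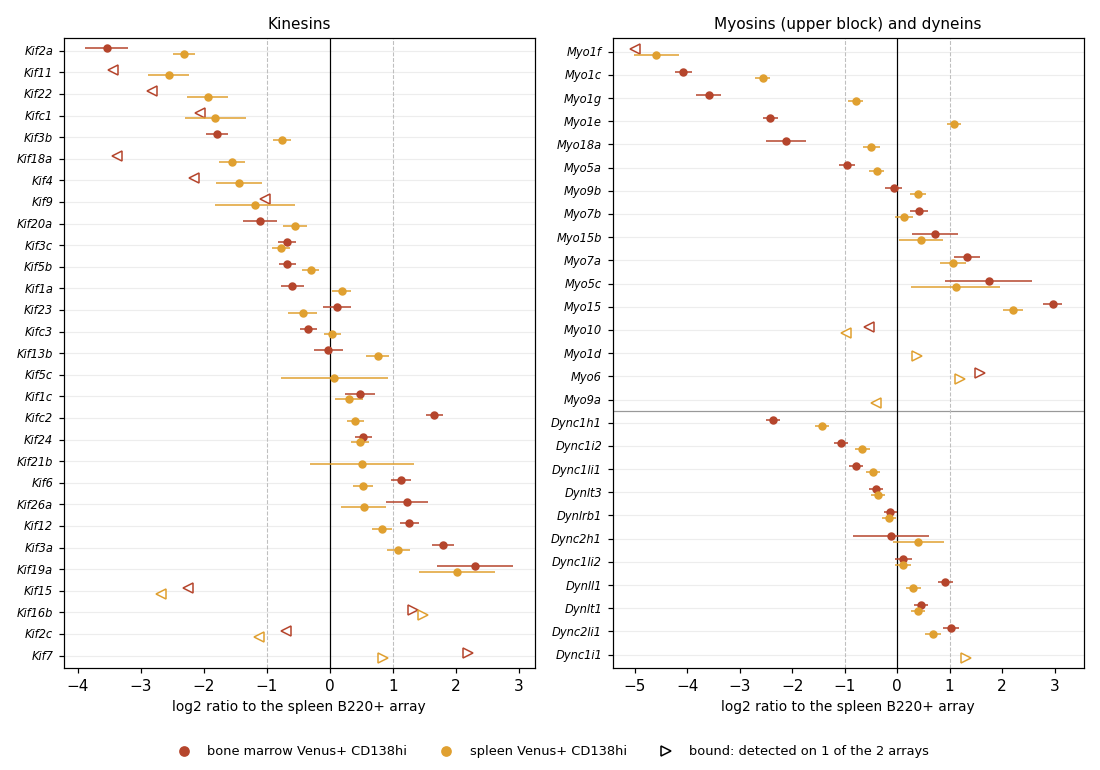
Log2 ratio of the normalized signal to the spleen B220+ array for kinesins (left), myosins and dyneins (right), bone marrow Venus+ above spleen Venus+, 1 array each. Bars give the spot error, open triangles lower bounds and dashed lines 2-fold; genes without either value are not drawn. Myo1e has its points on opposite sides of 0, and many spindle kinesins (Kif11, Kif15, Kif18a, Kif22, Kif4, Kifc1) have only a bound in bone marrow Venus+ cells.

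Among the motors of microtubules, the kinesins that build the spindle or complete cell division were faint in the Venus+ populations. Of 10 such genes, 2 gave a detected signal in bone marrow Venus+ cells (Kif20a and Kif23), 7 in spleen Venus+ cells and 9 in B220+ cells, where the shares over all genes were 70.3% in bone marrow Venus+, 75.8% in spleen Venus+ and 74.2% in B220+ cells. Kif11, which pushes the spindle poles apart, was not detected in bone marrow Venus+ cells and had 4.32 in spleen Venus+ cells and 25.4 in B220+ cells. That is at least 10.8-fold lower in bone marrow and a log2 ratio of -2.56 ± 0.32 in spleen. Kif18a, which trims the microtubules that hold chromosomes, was likewise not detected in bone marrow Venus+ cells, with 8.33 in spleen Venus+ cells and 24.4 in B220+ cells, or at least 10.4-fold lower and -1.55 ± 0.21. Kif15, a partner of Kif11, was detected in B220+ cells alone, at 11.1, with bone marrow at least 4.74-fold and spleen at least 6.41-fold lower. Kif2c, which works on the attachment of chromosomes, was also detected in B220+ cells alone, at 3.80. Kif22, Kif4 and Kifc1, which work on chromosomes and spindle poles, were lower in spleen Venus+ cells, Kif22 with a log2 ratio of -1.94 ± 0.32, Kif4 with -1.45 ± 0.36 and Kifc1 with -1.82 ± 0.48, and were not detected in bone marrow Venus+ cells. The central spindle kinesin Kif23 stood apart with 11.4 in bone marrow Venus+ cells, 7.85 in spleen Venus+ cells and 10.6 in B220+ cells, within 2-fold on every pair, and Kif20a, of the same structure, had 7.49 in bone marrow Venus+ cells, 11 in spleen Venus+ cells and 16.2 in B220+ cells.

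None of these spleen calls held under every other processing, since with normexp the log2 ratios lay between -0.55 for Kif11 and -0.09 for Kif4. Other genes of cell division, from a list of 27 on the array, gave a similar picture. In bone marrow Venus+ cells 12 of the 15 measured on both arrays (80.0%, against 30.7% of all genes) were lower than in B220+ cells. None was higher, against 22.4% of all genes. A further 10 had a detected signal on the B220+ array alone of this pair, as did 1352 of all 16390 genes. In spleen Venus+ cells 13 of 23 (56.5%, against 16.5% of all genes) were lower, with a median log2 ratio of -1.49. Top2a, which untangles DNA before division, had 15.9 in bone marrow Venus+ cells, 37.3 in spleen Venus+ cells and 134 in B220+ cells, whereas Mki67, the proliferation marker, was within 2-fold at 71.9 in bone marrow Venus+ cells, 101 in spleen Venus+ cells and 88.1 in B220+ cells.

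Of the 26 other kinesins, cargo and cilia motors among them, 6 of the 15 measured were higher and 2 lower in bone marrow Venus+ cells than in B220+ cells, and 2 of 18 higher and 2 lower in spleen Venus+ cells. The shares over all genes were 22.4% higher and 30.7% lower in bone marrow Venus+ cells. They were 15.7% higher and 16.5% lower in spleen Venus+ cells. Kif5b, the common kinesin-1 motor, had 195 in bone marrow Venus+ cells, 251 in spleen Venus+ cells and 310.4 in B220+ cells, within 2-fold on each pair. The partners of kinesin-2 parted: Kif3a had 33.3 in bone marrow Venus+ cells, 20.4 in spleen Venus+ cells and 9.60 in B220+ cells, rising with log2 ratios of 1.79 ± 0.17 in bone marrow and 1.09 ± 0.18 in spleen, and Kif3b had 15.6 in bone marrow Venus+ cells, 31.6 in spleen Venus+ cells and 53.7 in B220+ cells, with -1.79 ± 0.17 in bone marrow and -0.76 ± 0.14 in spleen. Kifc2, a motor that moves towards the minus end, had 418 in bone marrow Venus+ cells, 175 in spleen Venus+ cells and 132 in B220+ cells, higher in bone marrow alone (1.66 ± 0.13). Kif19a, a kinesin of cilia, had 8.53 in bone marrow Venus+ cells, 7.02 in spleen Venus+ cells and 1.73 in B220+ cells, or 2.30 ± 0.61 in bone marrow and 2.02 ± 0.60 in spleen, and Kif6, Kif12 and Kif26a were higher in bone marrow, Kif6 with 1.13 ± 0.16, Kif12 with 1.26 ± 0.15 and Kif26a with 1.23 ± 0.33. None of these higher calls held under every other processing, and neither did the lower call of Kif3b in bone marrow (-0.81 with normexp). Kif2a, which takes microtubules apart, had 5.44 in bone marrow Venus+ cells, 12.8 in spleen Venus+ cells and 63.5 in B220+ cells, with log2 ratios of -3.54 ± 0.34 in bone marrow and -2.32 ± 0.17 in spleen, but its ratio turned to 2.46 in bone marrow and 3.56 in spleen when local background was subtracted. Kif9 was lower in spleen Venus+ cells (-1.18 ± 0.64), with 2.13 in spleen Venus+ and 4.82 in B220+ cells, and was not detected in bone marrow Venus+ cells. Kif16b was detected only in the Venus+ populations, at 3.36 in bone marrow and 3.74 in spleen, at least 2.50-fold above B220+ cells in bone marrow and at least 2.78-fold in spleen. Kif13a was detected only in B220+ cells, at 1.48, which is below the lowest detectable signal of both Venus+ arrays. Kif3c, Kif13b, Kif1a, Kif1c, Kif24 and Kifc3 lay within 2-fold on every pair, and Kif21b and Kif5c within 2-fold between spleen Venus+ and B220+ cells. Kif21b and Kif5c were undetected in bone marrow Venus+ cells, where the lowest detectable signal lay above their signals on the other arrays.

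Cytoplasmic dynein carries cargo towards the cell centre. Its heavy chain gene Dync1h1, the motor itself, had 202 in bone marrow Venus+ cells, 388 in spleen Venus+ cells and 1041 in B220+ cells, a stepwise order with log2 ratios to B220+ cells of -2.36 ± 0.13 in bone marrow and -1.43 ± 0.14 in spleen, and both calls held under every other processing. The intermediate chain gene Dync1i2 had 156 in bone marrow Venus+ cells, 209 in spleen Venus+ cells and 330.1 in B220+ cells, lower in bone marrow alone (-1.08 ± 0.13). That call did not hold under every other processing. The other intermediate chain gene, Dync1i1, was detected in spleen Venus+ cells alone, at 3.33, at least 2.48-fold above B220+ cells and at least 1.41-fold lower in bone marrow than in spleen Venus+ cells. The light intermediate chain genes were within 2-fold, Dync1li1 with 114 in bone marrow Venus+ cells, 142 in spleen Venus+ cells and 196 in B220+ cells and Dync1li2 with 22.9 in bone marrow Venus+ cells, 22.8 in spleen Venus+ cells and 21.1 in B220+ cells. Of the 6 light chain genes, shared with other complexes, 4 were measured on every array and all 4 lay within 2-fold of B220+ cells. Dynlt1 had 1544 in bone marrow Venus+ cells, 1486 in spleen Venus+ cells and 1128 in B220+ cells, Dynlt3 389 in bone marrow Venus+ cells, 397 in spleen Venus+ cells and 512 in B220+ cells, and Dynlrb1 428 in bone marrow Venus+ cells, 421 in spleen Venus+ cells and 467 in B220+ cells. Dynll1, the LC8 light chain, had 50.6 in bone marrow Venus+ cells, 33.2 in spleen Venus+ cells and 26.8 in B220+ cells. Dynll2 was detected in B220+ cells alone, at 1.59, which is below the lowest detectable signal of both Venus+ arrays. Dync2h1, the heavy chain of the dynein of cilia, was dim and within 2-fold at 2.68 in bone marrow Venus+ cells, 3.84 in spleen Venus+ cells and 2.90 in B220+ cells. Dync2li1, of the same dynein, rose in bone marrow (1.03 ± 0.15), with 40.5 in bone marrow Venus+ cells, 31.8 in spleen Venus+ cells and 19.9 in B220+ cells. With normexp its bone marrow ratio was 0.42.

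The α- and β-tubulins, the bricks of microtubules, mostly lay within 2-fold. Of the 10 measured on both arrays, 1 was higher and 3 lower in bone marrow Venus+ cells than in B220+ cells, and 1 higher and 2 lower in spleen Venus+ cells. Over all genes 22.4% were higher and 30.7% lower in bone marrow, and 15.7% higher and 16.5% lower in spleen. The lower counts thus lay near the shares of all genes. Tubb5, the main β-tubulin of lymphocytes, had 899.8 in bone marrow Venus+ cells, 951 in spleen Venus+ cells and 651 in B220+ cells, and Tuba4a had 1168 in bone marrow Venus+ cells, 925 in spleen Venus+ cells and 793 in B220+ cells, both within 2-fold. Tubb4b had 1292 in bone marrow Venus+ cells, 1241 in spleen Venus+ cells and 3113 in B220+ cells, lower in both Venus+ populations (-1.27 ± 0.13 in bone marrow and -1.33 ± 0.14 in spleen). Tuba1b had 874 in bone marrow Venus+ cells, 1329 in spleen Venus+ cells and 2478 in B220+ cells, lower in bone marrow (-1.50 ± 0.13) and within 2-fold in spleen (-0.90 ± 0.14), but its dimmer second probe gave 0.42 in bone marrow and 1.06 in spleen. α-tubulin genes are nearly alike in sequence, and the probes may share targets. Tubb4a, known from the brain, fell with 3.75 in bone marrow Venus+ cells, 10.4 in spleen Venus+ cells and 20.9 in B220+ cells, or -2.48 ± 0.47 in bone marrow and -1.02 ± 0.19 in spleen. Tuba8 rose with 20.2 in bone marrow Venus+ cells, 11.6 in spleen Venus+ cells and 5.34 in B220+ cells, or 1.92 ± 0.24 in bone marrow and 1.12 ± 0.25 in spleen. Tubb6 was detected in spleen Venus+ cells alone, at 6.999, at least 5.21-fold above B220+ cells. None of the calls of these genes held under every other processing. Tubb2a, Tubb2b, Tubb3 and Tubal3 lay within 2-fold on every pair.

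The γ-tubulin complex seeds new microtubules at the centrosome. Its core genes Tubg1 and Tubg2 lay within 2-fold, Tubg1 with 36.9 in bone marrow Venus+ cells, 45.98 in spleen Venus+ cells and 40.1 in B220+ cells and Tubg2 with 30.1 in bone marrow Venus+ cells, 22.1 in spleen Venus+ cells and 19.3 in B220+ cells, where bone marrow had a log2 ratio of 0.65 ± 0.15 to B220+ cells. The 4 genes of its other proteins were all lower in bone marrow Venus+ cells than in B220+ cells, with a median log2 ratio of -2.20, and 2 of 4 in spleen Venus+ cells, with a median of -0.81. Over all genes 30.7% were lower in bone marrow and 16.5% in spleen. Tubgcp5, which joins the ring complex, had 9.57 in bone marrow Venus+ cells, 25.9 in spleen Venus+ cells and 70.7 in B220+ cells, the steepest order of the 4, with -2.89 ± 0.22 in bone marrow and -1.45 ± 0.15 in spleen. Tubgcp6 had 11.7 in bone marrow Venus+ cells, 31.9 in spleen Venus+ cells and 64.7 in B220+ cells, or -2.47 ± 0.20 in bone marrow and -1.02 ± 0.14 in spleen. Tubgcp3 had 28.8 in bone marrow Venus+ cells, 71.9 in spleen Venus+ cells and 109.6 in B220+ cells and Tubgcp2 35.8 in bone marrow Venus+ cells, 67.2 in spleen Venus+ cells and 84.8 in B220+ cells, lower in bone marrow alone (-1.93 ± 0.14 for Tubgcp3 and -1.24 ± 0.14 for Tubgcp2). The bone marrow calls of Tubgcp5 and Tubgcp6 held under every other processing that gave a value, and the other calls of the 4 genes did not. A second probe of Tubgcp6 was not detected on any array, so the mean over its probes rests on the other probe alone. Tube1, an ε-tubulin of centrioles, went the other way in bone marrow (1.26 ± 0.17), with 27.3 in bone marrow Venus+ cells, 18.6 in spleen Venus+ cells and 11.4 in B220+ cells. With normexp its bone marrow ratio was 0.47.

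**Figure D4:**
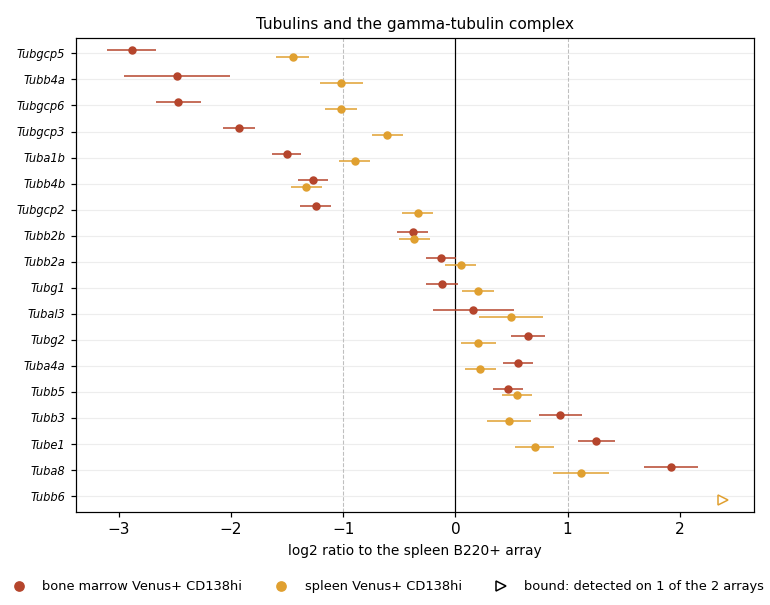
Log2 ratio of the normalized signal to the spleen B220+ array for tubulins and γ-tubulin complex genes, bone marrow Venus+ above spleen Venus+, 1 array each. Bars give the spot error, the open triangle a lower bound (Tubb6) and dashed lines 2-fold. The 4 Tubgcp genes lie left of -1 in bone marrow Venus+ cells, and 7 of 17 points of that array do in all.

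Between the Venus+ populations, 98 of the genes were measured on both arrays. Of these, 2 (2.04%) were higher and 24 (24.5%) lower in bone marrow than in spleen, where 4.33% of all genes were higher and 15.2% lower. The median log2 ratio was -0.20, against -0.17 for all genes. A further 15 genes were detected in spleen and not in bone marrow Venus+ cells, and 1, Coro6, in bone marrow and not in spleen Venus+ cells, whatever their signal in B220+ cells. Of all 16390 genes, 1070 were detected on the spleen array alone of this pair and 173 on the bone marrow array alone. These ratios use the same 3 arrays as the ones above, so they add no measurement. The share of higher among the called genes was 7.69%, against 22.2% over all genes. It was 36.4%, against 57.7% over all genes, when the scaling used only probes detected on all 3 arrays, and 33.3%, against 44.1%, with quantile normalization. Those settings moved the bone marrow ratios of all genes as well: the scaling to probes detected on all 3 arrays brought the median over all genes to 0.16 and that of the cytoskeletal genes to 0.13.

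Of the 24 lower genes, 6 were at least 4-fold lower in bone marrow than in spleen Venus+ cells, out of 98 measured. Over the whole array, 250 of 11352 genes were at least 4-fold lower. The 6 bind actin filaments, except for the exchange factor Dock8. Myo1e had 31.03 in bone marrow and 349.7 in spleen Venus+ cells, a log2 ratio of -3.49 ± 0.12, the 26th lowest of 11352 genes. Coro1a followed with 196 in bone marrow and 1468 in spleen (-2.91 ± 0.11), Myo1g with 8.28 in bone marrow and 57.8 in spleen (-2.80 ± 0.23), and Dock8 with 8.52 in bone marrow and 51.7 in spleen (-2.60 ± 0.23). The other 2 were Cnn3 (-2.18 ± 0.41) and Cnn2 (-2.12 ± 0.11). Actr2 (-1.37 ± 0.11) and Actr3 (-1.09 ± 0.11) were lower, while the other 5 Arp2/3 subunit genes measured lay within 2-fold. Was (-1.25 ± 0.12), Coro1b (-1.26 ± 0.11) and Dock2 (-1.31 ± 0.11) were lower too. Of the 24 lower calls, those of Myo1e, Coro1a and Actr2 held under each of the 8 other ways of processing. With local background, Coro1b turned to 2.29, Dock2 to 1.08 and Tubgcp6, lower at -1.45, to 0.59.

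Kif18a, Dock11 and Tubb6 were undetected in bone marrow but detected in spleen Venus+ cells, which puts Kif18a at least 3.54-fold, Dock11 at least 2.53-fold and Tubb6 at least 2.98-fold lower in bone marrow. The genes higher in bone marrow were both kinesins. Kifc2 had a log2 ratio of 1.26 ± 0.11, which local background turned to -1.16. Kif7, a kinesin of cilia, had 6.13 in bone marrow and 2.42 in spleen Venus+ cells (1.34 ± 0.60), and -0.030 with local background. The second probe of Kif7 was not detected on any array. Dock6 was high in both and lay within 2-fold (0.52 ± 0.11), as did the dynein light chains. Of the 7 mature B cell markers measured, 5 were lower in bone marrow, Ms4a1 (CD20) with 334 in bone marrow and 2619 in spleen Venus+ cells, and 1 was higher, Fcer2a (CD23) with 166 in bone marrow and 62.4 in spleen Venus+ cells. Their part in these ratios was not tested.

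Across the 92 genes detected on all 3 arrays, 32 had their highest signal in bone marrow Venus+, 12 in spleen Venus+ and 48 in B220+ cells, or 34.8% in bone marrow Venus+, 13.0% in spleen Venus+ and 52.2% in B220+ cells. Over all genes these shares were 32.9% in bone marrow Venus+, 20.7% in spleen Venus+ and 46.4% in B220+ cells. In the Arp2/3 and actin-related family, B220+ was the highest array for 10 of 13. Bright genes leaned lower on the whole array: with a mean signal of 100 or more, the median log2 ratio to B220+ cells over all genes was -0.54 in bone marrow Venus+ and -0.28 in spleen Venus+ cells. The 31 cytoskeletal genes of that brightness had medians of -1.08 in bone marrow and -0.57 in spleen. Among genes with a mean signal under 10, the median over all genes was 0.49 in bone marrow and 0.41 in spleen, and that over the 15 cytoskeletal genes 0.16 in bone marrow and 0.30 in spleen. Bright genes were thus lower and dim genes higher in the Venus+ populations over the whole array, and the cytoskeletal genes of each brightness lay below all genes in both.

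Actin genes outside the families, from a list of 67 on the array, were often lower too. In bone marrow Venus+ cells 34 of 54 measured genes (63.0%, against 30.7% of all genes) were lower than in B220+ cells, with a median log2 ratio of -1.42. Rhob was the 1 higher gene (1.85%, against 22.4% of all genes). Of this pair, 7 more genes were detected on the B220+ array alone and 2 on the bone marrow array alone, one of them Cttn, at least 18.8-fold above B220+ cells. In spleen Venus+ cells 23 of 61 (37.7%, against 16.5% of all genes) were lower, and the median log2 ratio was -0.65. There, Rhob and Cyfip1 were the 2 higher genes (3.28%, against 15.7% of all genes). Rhob had 27.7 in bone marrow Venus+, 47 in spleen Venus+ and 2.16 in B220+ cells, dim on the B220+ array. Actb, cytoplasmic β-actin, had 1523 in bone marrow Venus+ cells, 2974 in spleen Venus+ cells and 4779.9 in B220+ cells. Tmsb4x, thymosin β4, which holds actin monomers in reserve, had 1593 in bone marrow Venus+ cells, 8864 in spleen Venus+ cells and 24091 in B220+ cells, in a steep order with log2 ratios of -3.92 ± 0.13 in bone marrow and -1.44 ± 0.14 in spleen. Flna, the cross-linker filamin A, had 9.70 in bone marrow Venus+ cells, 70 in spleen Venus+ cells and 210.1 in B220+ cells, or -4.44 ± 0.22 in bone marrow and -1.59 ± 0.14 in spleen. Gsn, gelsolin, which severs filaments, had 6.43 in bone marrow Venus+ cells, 11.2 in spleen Venus+ cells and 182 in B220+ cells, with -4.83 ± 0.29 in bone marrow and -4.02 ± 0.18 in spleen. Lcp1, the leukocyte bundling protein L-plastin, had 54.3 in bone marrow Venus+ cells, 294 in spleen Venus+ cells and 694 in B220+ cells, with -3.68 ± 0.14 in bone marrow and -1.24 ± 0.14 in spleen.

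Cyfip1, a subunit of the WAVE complex, repeated the order of Myo1e with 45.6 in bone marrow Venus+ cells, 236 in spleen Venus+ cells and 93.02 in B220+ cells, lower in bone marrow (-1.03 ± 0.14) and higher in spleen (1.34 ± 0.14) than in B220+ cells. Capg, a capping protein, and Actn4, an actinin, were level, Capg with 817 in bone marrow Venus+ cells, 886 in spleen Venus+ cells and 830.0 in B220+ cells.

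Microtubule genes outside the families, 47 on the array, leaned lower in bone marrow Venus+ cells, where 17 of 37 (45.9%) were lower and 4 (10.8%) higher, with a median log2 ratio of -0.91, against 30.7% lower and 22.4% higher over all genes. In spleen Venus+ cells 7 of 43 (16.3%) were lower and 5 (11.6%) higher, near the 16.5% and 15.7% of all genes, and the median log2 ratio was -0.17. Stmn1, stathmin, which takes up free tubulin, had 70.8 in bone marrow Venus+ cells, 101 in spleen Venus+ cells and 595 in B220+ cells, with log2 ratios of -3.07 ± 0.13 in bone marrow and -2.56 ± 0.14 in spleen. Pafah1b1, the dynein regulator LIS1, had 61.1 in bone marrow Venus+ cells, 132 in spleen Venus+ cells and 360.5 in B220+ cells, or -2.56 ± 0.13 in bone marrow and -1.45 ± 0.14 in spleen, in the order of Dync1h1. Map7, which recruits kinesin-1, had 3.92 in bone marrow Venus+ cells, 17.2 in spleen Venus+ cells and 71.5 in B220+ cells, with -4.19 ± 0.45 in bone marrow and -2.06 ± 0.16 in spleen. The dynactin genes Dctn1, Dctn2, Dctn3, Dctn4 and Dctn6 lay within 2-fold on every pair, Dctn6 with 402 in bone marrow Venus+ cells, 318 in spleen Venus+ cells and 360.4 in B220+ cells. Dctn5 was lower in bone marrow Venus+ cells (-1.56 ± 0.13), with 122 in bone marrow Venus+ cells, 193 in spleen Venus+ cells and 359 in B220+ cells.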

How the data were processed

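Per the series' design text, the authors labelled RNA with Cy5, hybridized it to a Toray 3D-Gene mouse array, subtracted the level of the blank spots and scaled each array to a median detected signal of 25. The deposited scanner files give, per the file headers, each spot's intensity and a local background, and the authors' second table holds the processed intensity values. The sources used here give no software versions. The signals used here were recomputed from the scanner files with a blank level averaged over the central 90% (2462) of each array's 2736 blank spots, and a probe was detected above that level plus 2 SD. Detection calls differed from the authors' table for 0 probes, and table values of 10 or more by at most 4.05%.

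For a gene with several probes (4 of the 131), the brightest one by mean log2 signal stood for the gene. The bound for a gene detected on 1 array is the bright signal over the higher of the dim array's lowest detected signal and the dim probe's own. No test was made, as each population has 1 array; the number of arrays limits the precision. Gene names came from the platform annotation, updated through RefSeq's genes of GRCm38.p6, the source of the promoter windows too. The genes named are the 4 of each family with the largest log2 ratio or bound in each comparison, all that differed at least 4-fold, and others named for their role in lymphocytes, secretion or division. The rule for the members uses no measured value, but it and the lists were chosen with earlier results of these data known.

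Alternatives were the authors' table, normexp (offset 50) or local background, scaling to the probes detected on all 3 arrays, quantile normalization, a signal of at least 10 on both arrays, the mean over a gene's probes, and a limit from spots without a probe. The steps were tested on simulated data and run with Python 3.11.15, pandas 2.3.3, numpy 2.4.6, matplotlib 3.10.9, R 4.3.3 and limma 3.58.1.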

Additional observations from a re-analysis of the deposited data

Results flagged for a closer look

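Myo1e was at least 2-fold higher in spleen Venus+ cells (log2 ratio 1.08) and at least 2-fold lower in bone marrow Venus+ cells (-2.41) than in spleen B220+ cells. It is given here because its ratios to the B220+ array went in opposite directions in the spleen and bone marrow Venus+ populations. With 1 array for each population the difference between these ratios was not tested, and both use the B220+ array.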

How the results depend on the processing

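No paired analysis was possible because each group has 1 array and no test was made. The authors' table and the mean over a gene's probes left all counts within 1.5 times and all medians within the spot error. The last alternative listed here was chosen after seeing the data. In each list that follows, cytoskeletal genes of a comparison are given as the count higher, the count lower or the median log2 ratio. With normexp, spleen Venus+ against B220+ cells had 1 higher, 23 lower and a median of -0.21, bone marrow Venus+ against B220+ cells 3 higher and a median of -0.35, and bone marrow against spleen Venus+ cells 0 higher and 7 lower. With local background, bone marrow against spleen Venus+ cells had 6 higher. Scaled to the probes detected on all 3 arrays, the median for bone marrow Venus+ against B220+ cells was -0.28, and bone marrow against spleen Venus+ cells had 8 higher, 14 lower and a median that turned to 0.13. With quantile normalization, the medians were -0.24 for spleen Venus+ and -0.21 for bone marrow Venus+ against B220+ cells and -0.049 between the Venus+ populations, with 9 higher in bone marrow. With a signal of at least 10 on both arrays, which removes dim genes, 2 were higher in spleen Venus+ than in B220+ cells, 6 higher and 25 lower in bone marrow Venus+ cells, and 1 higher and 14 lower in bone marrow than in spleen Venus+ cells. With the limit taken from spots that carry no probe, spleen Venus+ against B220+ cells had 17 higher, 23 lower and a median of -0.10, and the other medians were -0.40 for bone marrow Venus+ against B220+ cells and -0.41 between the Venus+ populations.

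Of the calls for single genes, these turned sign. Under normexp they were Kif9 (0.076, spleen Venus+ against B220+ cells) and Diaph3 (0.0090, bone marrow Venus+ against B220+ cells). Under local background they were Diaph2 (0.052) and Kif2a (3.56) in spleen Venus+ against B220+ cells, Kif20a (0.041) and Kif2a (2.46) in bone marrow Venus+ against B220+ cells, and Coro1b (2.29), Dock2 (1.08), Kif7 (-0.030), Kifc2 (-1.16) and Tubgcp6 (0.59) in bone marrow against spleen Venus+ cells. The local background of bright spots, with a signal of 100 or more, had a median of 58.0% of the spot in bone marrow Venus+, 53.7% in spleen Venus+ and 60.4% in B220+ cells. Against B220+ cells, 2 of 15 higher and 21 of 38 lower calls in bone marrow Venus+ cells and 1 of 10 higher and 11 of 35 lower calls in spleen Venus+ cells held in every setting that gave a value. Between the Venus+ populations 0 of 2 higher and 3 of 24 lower calls did. The cause of these changes was not tested. Dim probes lie near the detection limit, where the spot error of a log2 ratio reached 0.85.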
